A study of Mus musculus with 11 samples.

Results

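The comparison described here set KIT+ against KIT- spermatogonia from 6-day mice, the youngest age of a series that sorted the same fractions at 6 days, 8 months and 15 months. Its 4 libraries, 2 titled KIT+ and 2 titled KIT-, were taken from the 11 RNA-seq libraries of the series by their titles, and all 18412 genes that passed a filter on low read numbers entered the test. Every group came from Oct4-GFP mice, of the B6;CBA-Tg(Pou5f1-EGFP)2Mnn/J strain, which carry GFP under the control of Pou5f1 (Oct4) regulatory sequence. The study's methods state that Oct4-GFP+ cells were sorted by FACS into KIT- and KIT+ fractions, with about the same number of cells taken per population in independent experiments. KIT is thus the antigen that separated the fractions, and GFP was required of both. No treatment was given to the 6-day mice in the labels, and the number of mice pooled for a library was not given in the sources used here. Each library came from total RNA depleted of ribosomal RNA.

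In the postnatal testis, undifferentiated spermatogonia, which include the stem cells, lack or have little KIT on their surface and are kept by GDNF from Sertoli cells, which signals through the receptor RET and its coreceptor GFRA1. Retinoic acid moves these cells into differentiation: they then express the receptor tyrosine kinase KIT, induce Stra8, and go through a series of rapid divisions before meiosis. In the first postnatal week the tubules hold spermatogonia that have only recently formed from gonocytes, and no meiotic cells yet. KIT signals mainly through PI3K, AKT and mTORC1, and raises translation in these cells.

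The 6-day libraries held between 25371499 and 37445553 reads on genes, a 1.48-fold range, so that for a gene with 1 kb of exon 3 reads gave 0.0801 to 0.118 RPKM (read number scaled to exon length and to the library's reads on genes). Intervals and floors of this kind cover counting error only. Both fractions were germ cells by their markers: Ddx4, an RNA helicase of the germline, was at 155, 161, 183 and 158 RPKM in KIT- replicates 1 and 2 and KIT+ replicates 1 and 2, the order used for all values that follow. Markers of mast cells, another KIT+ cell type, were at 0 for 7 of 8 genes, and red blood cell markers summed to at most 0.654 RPKM. Sertoli cell markers differed between the fractions. The 13 matched markers of 14 summed to 21 and 16.8 RPKM in KIT- and to 10.1 and 11.6 RPKM in KIT+; 5 of the 13 were higher in both KIT- libraries than in both KIT+ libraries, as were 20.3% of all tested genes, 0 had the reverse (21.6% of all), and the highest single marker value, that of Inha, was 5.82 RPKM. Fshr was at 0 in 1 KIT+ library and Sox9 lay between 0.213 and 0.456 RPKM. In bulk samples, fewer cells of a type and less RNA per cell cannot be told apart.

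The difference between the fractions was small. Over all tested genes the log2 difference between a KIT+ and a KIT- library reached 1.5-fold in size for 8.52% to 12.5% of genes in the 4 possible pairs, against 8.54% between the KIT- replicates and 6.34% between the KIT+ replicates. The closest pair of a KIT+ and a KIT- library, replicate 2 of each, was thus no farther apart at this size than the KIT- replicates were. At 2-fold the shares were 2.14% to 3.46% between fractions, 2.83% between KIT- replicates and 1.82% between KIT+ replicates. All values on the log2 scale are of log2(RPKM + 1), a scale that makes the change of weakly expressed genes look smaller. The median difference was 0.00158, and 9282 genes lay above 0.

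**Figure D1:**
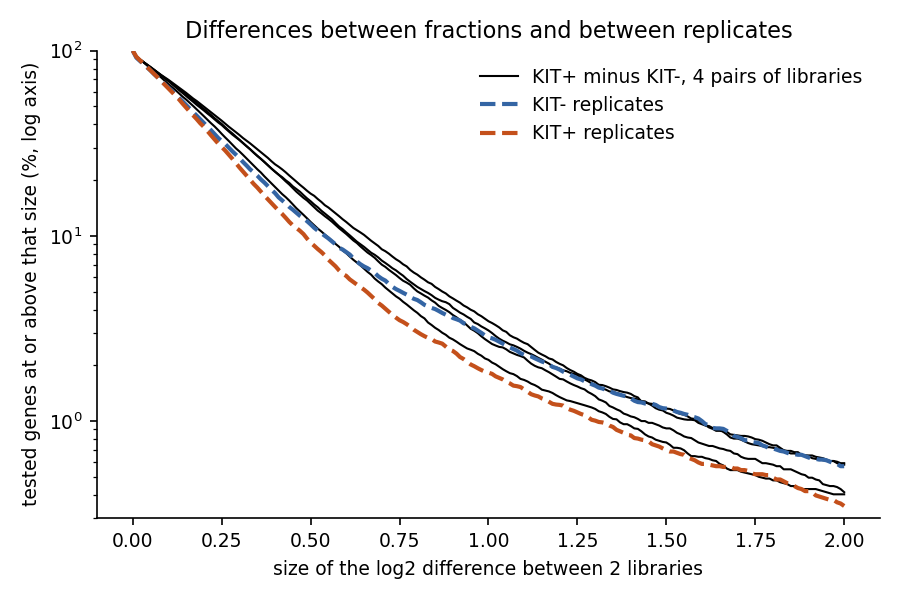
The share of the 18412 tested genes (percent, log axis) whose log2 difference between 2 libraries is at least the size on the horizontal axis; black lines are the 4 pairs of a KIT+ and a KIT- library, dashed lines the replicate pairs. The lines for KIT- replicates and for the fractions run together, with 8.54% of genes past 1.5-fold between KIT- replicates and 8.52% to 12.5% between fractions.

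By limma's moderated test with Benjamini-Hochberg adjustment, 8 genes were called at an FDR of 0.05 and a fold change of 1.5, which is 0.0434% of those tested. Expression of 3 genes was higher in KIT+ (Kit, Stra8 and Gm9581) and that of 5 was lower (Ddit4, Enc1, Rragd, Gm12424 and Parp8). The number called was 1 without KIT- replicate 1 and 1 without KIT- replicate 2 (Kit in both), 2 without KIT+ replicate 1 (Kit and Stra8) and 4 without KIT+ replicate 2. A fit on the 4 libraries of 6-day mice alone called 0 genes and had 2309 at a nominal p of 0.05 or less, while limma-voom on reads recovered from the RPKM values called 74, of which 58 were lower in KIT+.

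**Figure D2:**
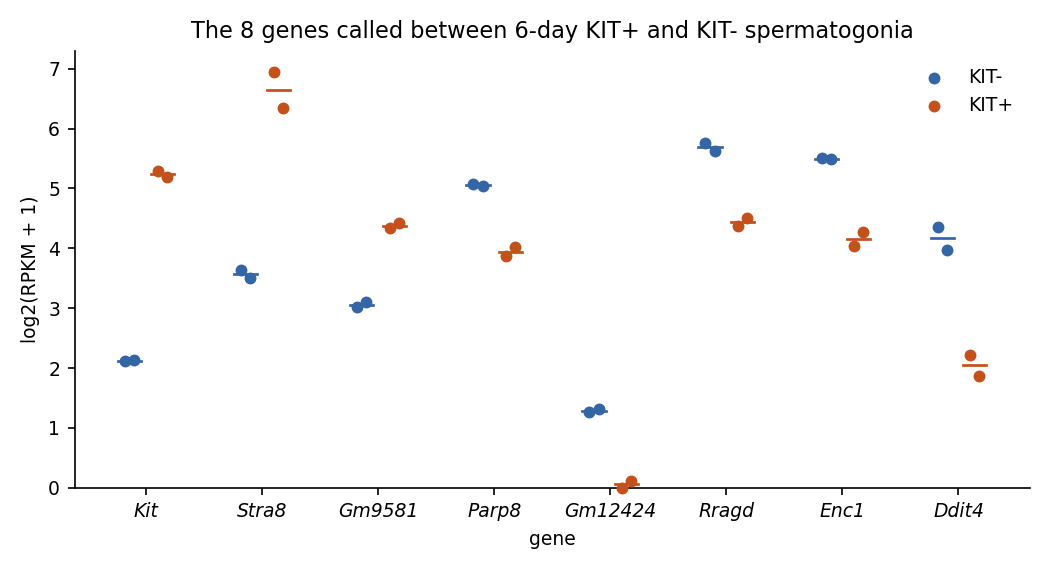
Level in each library, as log2(RPKM + 1), of the 8 genes called between KIT- (blue) and KIT+ (orange) spermatogonia of 6-day mice; short lines are the means of 2 libraries. In every gene both KIT+ libraries lie on one side of both KIT- libraries, and Kit and Stra8 differ most, by 3.12 and 3.08.

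Kit, the gene of the sorted receptor (chr5:75970941-76052747, + strand, NCBIM37/mm9), checks the sort. It was at 3.36, 3.37, 38.3 and 35.8 RPKM, and its log2 difference of 3.12 (SE 0.12, adjusted p = 0.000124) is a description, since the sort chose the cells by its product. KIT- cells held about the same low level in both replicates.

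Stra8 (chr6:34870163-34889342, + strand), which retinoic acid induces in differentiating spermatogonia and which is later needed to enter meiosis, rose nearly as far. Its level was 11.4, 10.3, 123 and 80.2 RPKM, a log2 fold change of 3.08 (SE 0.22, adjusted p = 0.00876). Both KIT+ libraries stood far above both KIT- libraries, and the KIT+ replicates also differed from each other more than the KIT- replicates did. Retinoic acid receptors bind paired copies of the motif AGGTCA, and the 250 bases before the RefSeq start of Stra8 (GRCm38.p6, chr6:34920698-34920947, + strand) are shown because Stra8 is the gene of this pathway that moved most; capitals mark AGGTCA on either strand, of which there are 2.
Stra8: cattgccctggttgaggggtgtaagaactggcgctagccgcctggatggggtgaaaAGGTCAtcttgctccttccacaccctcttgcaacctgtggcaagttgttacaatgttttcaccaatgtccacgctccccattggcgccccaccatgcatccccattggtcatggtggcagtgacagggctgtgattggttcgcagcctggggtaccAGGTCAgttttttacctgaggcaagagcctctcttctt
The 2 copies in Stra8 lie 189 and 33 bases before the start, so they are not next to each other. Of the 32841 promoters in the RefSeq table, 14% hold at least 1 AGGTCA in the same window. The promoter entries of Kit hold none in theirs. A match is a run of letters and was not tested as a binding site.

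Gm9581 (chr16:59556678-59600712, - strand) is annotated as a processed transcript, a spliced RNA without an assigned coding sequence, and no function is given for it here. It was at 7.09, 7.60, 19.3 and 20.3 RPKM, and rose by 1.32 (SE 0.11, adjusted p = 0.0129). The spread within each fraction was small beside the gap between them. The counting was not stated to use strand, so reads of an overlapping gene on the other strand could not be separated. Crybg3 (chr16:59490601-59555578, - strand) lies close to Gm9581 on the same strand and is named below. Its log2 difference was 1.16 at 6 days and 0.47 at 15 months, where that of Gm9581 was 0.61. Whether both are part of the same transcript was not tested.

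Among the genes that fell, Ddit4 (chr10:59412423-59414518, - strand), which encodes the mTORC1 inhibitor REDD1, changed most. Its level was 19.5, 14.7, 3.68 and 2.67 RPKM, a log2 fold change of -2.11 (SE 0.22, adjusted p = 0.0263). The lowest KIT- library was well above the highest KIT+ library. Rragd (chr4:33070012-33109155, + strand), a Rag GTPase through which amino acids recruit mTORC1 to the lysosome, was at 53.5, 48.4, 19.6 and 21.6 RPKM and changed by -1.27 (SE 0.13, adjusted p = 0.0263). Enc1 (chr13:98011060-98022994, + strand), an actin-binding kelch protein, was at 44.3, 43.9, 15.4 and 18.4 RPKM and changed by -1.34 (SE 0.11, adjusted p = 0.014). Its KIT- replicates were within 1 RPKM of each other. Parp8 (chr13:117643631-117814323, - strand), a mono-ADP-ribosyltransferase, was at 32.6, 31.9, 13.6 and 15.2 RPKM and changed by -1.11 (SE 0.11, adjusted p = 0.0263). The fifth, Gm12424 (chr4:47113904-47114350, + strand), is a pseudogene with 18, 17, 0 and 1 reads; a near-identical copy elsewhere could take or give such reads, and its adjusted p was 0.113 with a pseudocount of 0.1 RPKM in place of 1. Beside these lower values in KIT+ stand the summed Sertoli cell markers given above, which were also lower in KIT+; their part in the result was not tested.

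Below the thresholds for a call, the directions were nearly balanced. At a nominal p, one not adjusted for the number of genes, of 0.05 or less there were 1907 genes, 10.4% of those tested: 984 were higher in KIT+ (5.34%), with a median log2 difference of 0.48, and 923 were lower (5.01%), with a median of -0.53. Without KIT+ replicate 1 the number was 1152. Of the 1907, 699 differed by 1.5-fold or more, 317 higher and 382 lower, and 136 by 2-fold or more. Short genes made up much of the last group, since 48 of the 136 had under 200 bases of exon. At an FDR of 0.1 there were 29 genes, 14 higher and 15 lower, and at 0.2 there were 290, 126 higher and 164 lower. The libraries of the fractions did not overlap for 1905 of the 1907, and for 7717 of all tested genes (41.9%). With 2 libraries a fraction, the choice by p nearly fixes the first count, so it adds no support. Except where a called gene is named again, the genes that follow were not called.

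**Figure D3:**
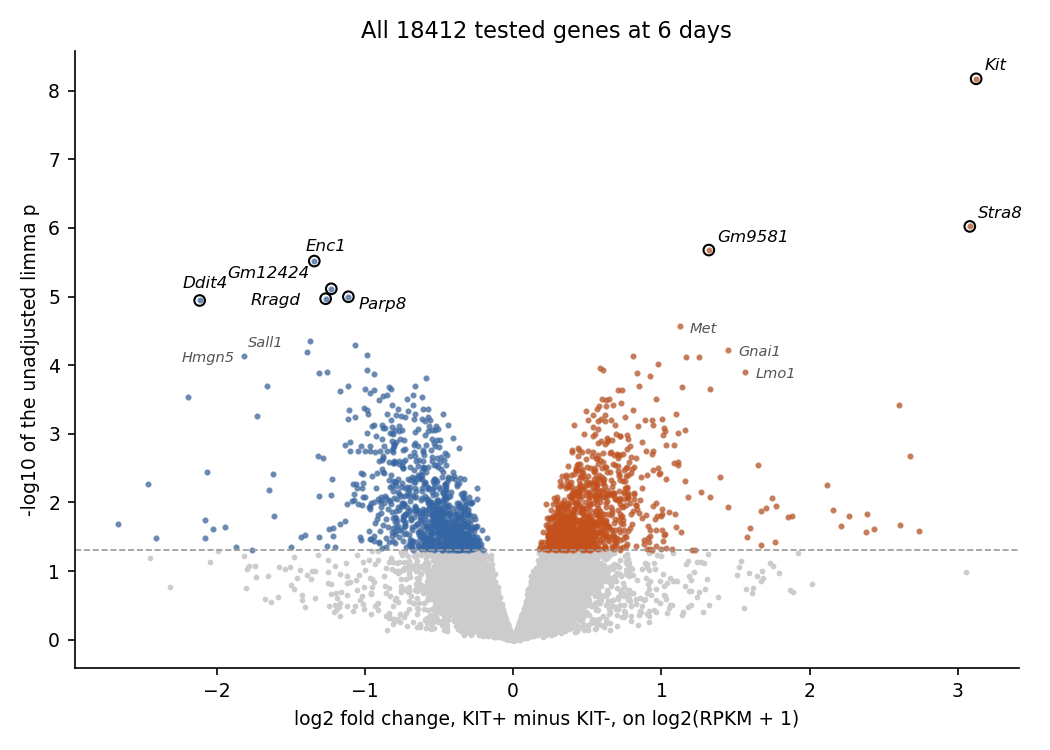
Log2 difference between KIT+ and KIT- spermatogonia at 6 days against -log10 of the unadjusted limma p for 18412 genes; the dashed line is a p of 0.05, orange points lie above it and are higher in KIT+ (984), blue points are lower (923), and circles mark the 8 called genes. Kit and Stra8 stand apart from all other genes, and the 2 wings are about equally filled.

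The genes nearest to a call that were higher in KIT+ included receptors and signal carriers. Met, the receptor tyrosine kinase for hepatocyte growth factor, was at 2.45, 2.80, 6.39 and 7.41 RPKM, a log2 difference of 1.12 (SE 0.13, adjusted p = 0.0557). Gnai1, an inhibitory G protein alpha subunit, was at 2.49, 1.58, 7.28 and 7.12 RPKM, a difference of 1.45 (SE 0.19, adjusted p = 0.0774). In both genes the fractions were apart by more than the spread of either. The rule that named these genes and those of the next paragraph required no overlap between the fractions. Lmo1, a LIM-domain transcription cofactor, was at 1.40, 1.78, 7.46 and 5.93 RPKM (difference 1.57, adjusted p = 0.0927). Rbm46, an RNA-binding protein of germ cells, was expressed far more in both fractions, at 56.4, 56.8, 84.7 and 89.1 RPKM (difference 0.61, adjusted p = 0.0927). Its difference was smaller than that of Met, but the replicates were closer. The others by the same rule were Qdpr, which regenerates tetrahydrobiopterin (0.97), the Mediator subunit Med30 (0.92), Crybg3 (1.16), Ccng1, a cyclin that p53 induces (0.59), Dnmt3b (0.84), and Slc7a6os (0.81), named for its place on the strand opposite Slc7a6, with adjusted p between 0.0774 and 0.0943.

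Among the genes nearest to a call that were lower in KIT+, several encode transcription factors and surface proteins. Sdc4, a heparan sulfate proteoglycan that binds growth factors, was at 392, 353, 188 and 166 RPKM, a log2 difference of -1.07 (SE 0.13, adjusted p = 0.0774). It was the most abundant of the named genes, and its KIT+ level was about as tightly held as its KIT- level. Sall1, a zinc finger factor, was at 14.6, 13.8, 4.38 and 5.45 RPKM (difference -1.37, adjusted p = 0.0774). Six4, a homeobox factor, was at 19.7, 19.6, 6.56 and 7.19 RPKM (difference -1.39, adjusted p = 0.0774). The KIT- replicates of Six4 were nearly equal. Hmgn5, a nucleosome-binding protein, was at 12.8, 8.48, 1.95 and 2.61 RPKM, the widest difference of this group at -1.81 (adjusted p = 0.0774). Zfp462 (-0.99), Ret (-0.98), Pabpc4l, a poly(A)-binding protein (-1.26), Ptch1 (-1.31), Psmd7, a subunit of the proteasome lid (-0.94), and the potassium channel gene Kcna1 (-1.11) completed the set, with adjusted p between 0.0774 and 0.104.

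Genes of undifferentiated spermatogonia lay mostly below 0. Of 42 tested members, 34 lay below 0 and 19 were lower at a nominal p of 0.05 or less, against 1 higher, and the median log2 difference was -0.40, against 0.00158 over all genes; 1 member, Ddit4, was called. Leaving out a library gave between 13 and 16 lower members. The counts of this list and of those that follow stand beside 5.34% higher and 5.01% lower of all tested genes. The list was chosen with earlier results of these libraries known and is not independent evidence of its direction.

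The GDNF receptor Ret was at 56.9, 55.8, 30.4 and 25.8 RPKM (difference -0.98, adjusted p = 0.0927), while its coreceptor Gfra1 was at 36.2, 36.1, 35.6 and 32.7 RPKM (-0.08, adjusted p = 0.987). The receptor pair thus had different values: Ret differed by much more than its replicate spread, and Gfra1 by no more than its KIT+ replicates did. Whether the difference of Ret exceeded that of Gfra1 was not tested. Zbtb16 (PLZF), a zinc finger factor needed to keep the stem cell pool, was at 84.1, 76.8, 54.0 and 46.6 RPKM (-0.67, adjusted p = 0.121). Nanos2, an RNA-binding protein that holds back differentiation, was at 3.15, 3.24, 1.61 and 0.493 RPKM (-1.09, adjusted p = 0.282), and its relative Nanos3 was at 5.78, 7.72, 3.51 and 2.05 RPKM (-1.05, adjusted p = 0.248). In both, the KIT+ replicates were uneven but below each KIT- library. Etv5, a GDNF-induced factor, was at 45.6, 39.5, 29.4 and 34.4 RPKM (-0.41), and Lhx1, another, at 5.93, 5.55, 3.48 and 4.20 RPKM (-0.48). The proneural factor Neurog3, which marks undifferentiated cells on their way to differentiation, was at 1.56, 3.08, 0.312 and 0.921 RPKM (-1.03, adjusted p = 0.434).

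Other anchors of the undifferentiated state had smaller or less steady differences. Id4, a helix-loop-helix inhibitor used to mark stem cells, was at 9.42, 10.4, 6.71 and 6.48 RPKM (-0.52, adjusted p = 0.578). Pou5f1, whose regulatory sequence drives the GFP of the sort, was at 15.2, 18.8, 11.6 and 9.73 RPKM (-0.63, adjusted p = 0.607). Foxo1 was at 27.8, 26.1, 19.7 and 20.5 RPKM (-0.40, adjusted p = 0.584). The standard errors of these 3 from the fit over 11 libraries were 0.27, 0.35 and 0.21. Sall4, a zinc finger factor of germ cells, was at 12.8, 12.2, 13.3 and 11.6 RPKM (0.00 after rounding, with overlapping fractions), and its sign turned under 3 of 12 alternatives. The 29 tested genes of the GDNF and FGF response had 8 lower and 0 higher members at a nominal p of 0.05 or less (median -0.26); Sdc4, Ret, Egr2, Lhx1, Bcl6b, Egr4 and Etv5 stand in both lists. Without KIT+ replicate 1 the 8 became 2, and without KIT- replicate 1 they became 3.

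The list of spermatogonial differentiation had members on both sides. Of 32 tested members, 7 were higher (21.9%) and 5 were lower (15.6%) at a nominal p of 0.05 or less, with a median of -0.02. Of these, Kit and Stra8 were called. The 5 lower became 1 without KIT+ replicate 2 and 2 without KIT- replicate 1. Sohlh2, a helix-loop-helix factor that starts differentiation, was at 76.3, 71.7, 106 and 96.2 RPKM (0.44, adjusted p = 0.231), and its partner Sohlh1 was at 16.2, 13.1, 25.5 and 18.5 RPKM (0.55, adjusted p = 0.464). Both KIT+ libraries were above both KIT- libraries in each. Dmrtb1 (DMRT6), which coordinates the passage to meiosis, was at 1.32, 1.10, 3.36 and 1.87 RPKM (0.68, adjusted p = 0.367). Dnmt3b, a de novo DNA methyltransferase that is induced in differentiating spermatogonia, was at 12.4, 11.4, 22.2 and 21.9 RPKM (0.84, adjusted p = 0.0927). Its relative Dnmt3a was at 13.2, 10.3, 9.23 and 8.63 RPKM (-0.35, adjusted p = 0.432), with the KIT+ libraries at the lower end, and the cofactor Dnmt3l was at 1.04, 0.859, 0.608 and 0.303 RPKM (-0.43). Ccnd2, a D-type cyclin that comes on at differentiation, was at 52.0, 43.9, 36.6 and 34.8 RPKM (-0.41, adjusted p = 0.512). Rhox13, a homeobox gene of differentiating spermatogonia, was at 16.7, 21.4, 22.6 and 15.2 RPKM. Its fractions overlapped, its difference was -0.02, and the sign turned under 3 of 12 alternatives. Esrp1, an epithelial splicing regulator on this list, was at 34.3, 28.3, 23.2 and 21.7 RPKM (-0.46, adjusted p = 0.255).

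In the retinoic acid pathway, 5 of 32 tested genes were higher (15.6%) and 3 lower (9.38%) at a nominal p of 0.05 or less. The median was 0.02. Without KIT- replicate 1 or KIT+ replicate 1 there were 3 higher, and without KIT- replicate 2 or KIT+ replicate 2 there was 1 lower. Rarb, a receptor gene that retinoic acid itself induces, was at 0.0530, 0.0708, 0.689 and 0.563 RPKM (0.61, adjusted p = 0.228). It was near the floor in KIT- and low in KIT+. Rarg, the receptor through which differentiating spermatogonia respond, was at 2.75, 3.07, 2.11 and 1.42 RPKM (-0.51, adjusted p = 0.326). Rdh11, an enzyme of the retinol dehydrogenase family, was at 1.02, 2.00, 3.38 and 3.05 RPKM (0.77, adjusted p = 0.274). Apart from Stra8, none of these was called.

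The KIT and PI3K-mTOR list had 47 tested members. At a nominal p of 0.05 or less, 4 were higher (8.51%) and 10 lower (21.3%), with a median of 0.00 after rounding. Kit and Ddit4 were called. Fyn, a Src-family kinase that acts below KIT, was at 35.1, 32.0, 20.1 and 19.5 RPKM (-0.73, adjusted p = 0.121). Pdk1, the pyruvate dehydrogenase kinase that this symbol denotes in the mouse and which also stands in the glycolysis list, was at 38.8, 41.7, 27.0 and 25.6 RPKM (-0.59, adjusted p = 0.14). In each the KIT+ libraries were close together below the KIT- libraries. The number lower was 5 without KIT- replicate 1, 6 without KIT+ replicate 1 and 10 or 11 without either of the others.

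Mitotic genes lay mostly above 0. Of 51 tested genes of G2 and M phase, 42 lay above 0, 15 were higher at a nominal p of 0.05 or less and 0 were lower, and the median was 0.19. The differences were small: the largest in the list was 0.49 and the lowest was -0.11, and none was called (lowest adjusted p = 0.166 by limma). Top2a, the topoisomerase that untangles sister chromatids, was at 114, 106, 148 and 152 RPKM (0.44, SE 0.10). Plk1, a mitotic kinase, was at 18.9, 15.5, 24.4 and 23.6 RPKM (0.46). Prc1, a crosslinker of the central spindle, was at 25.5, 20.9, 33.0 and 32.9 RPKM (0.49), and Cdc25c, the phosphatase that releases CDK1 for mitosis, at 11.5, 10.9, 14.7 and 16.1 RPKM (0.43). Leaving out a library left 7 to 11 higher members, 7 without KIT- replicate 2, and 0 lower.

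Promoters of mitotic genes are known for CCAAT boxes, bound by NF-Y, and for the letters TTTGAA, the core of the cell cycle homology region bound by the DREAM complex. Of the 15 members higher at a nominal p of 0.05 or less, 12 had RefSeq promoter entries, 14 in all. CCAAT stood on either strand in 85.7% of these and TTTGAA in 57.1%, against 33.9% and 16% of all promoters in the table; over the 41 matched members of the whole list the shares were 76.7% and 37.2%. The windows are those of genes chosen by their p, and the shares are a description. The promoter of Top2a (GRCm38.p6, chr11:99024190-99024439, - strand) is shown because Top2a had the lowest p of the list; capitals mark 6 CCAAT and 2 TTTGAA matches, read on either strand and not overlapping each other.
Top2a: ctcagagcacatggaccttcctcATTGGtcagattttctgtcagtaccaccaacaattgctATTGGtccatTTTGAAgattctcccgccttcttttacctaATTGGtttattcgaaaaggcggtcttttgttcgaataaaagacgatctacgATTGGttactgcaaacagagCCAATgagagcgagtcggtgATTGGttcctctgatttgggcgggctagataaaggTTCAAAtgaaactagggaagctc

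Other cell cycle lists were less even. Replication-dependent histone genes, which are transcribed in S phase and whose mRNA lacks a poly(A) tail, had 8 higher and 2 lower of 61 tested and a median of 0.25; the median between single libraries ranged from -0.01 to 0.51, so it depended on which libraries were set against each other. Hist1h2ag was at 11.2, 8.17, 17.1 and 20.3 RPKM (0.90, adjusted p = 0.166). Near-identical histone genes share reads, so single members are uncertain. Genes of G1 and S phase had 4 higher (8.33%) and 4 lower (8.33%) of 48 (median 0.06). As single libraries were left out, the counts went from 1 to 6 and from 1 to 3. The median was -0.0064 without KIT- replicate 2. Mcm6, a helicase subunit, was at 94.2, 94.3, 116 and 106 RPKM (0.23), whereas Cdk4 was at 93.3, 73.9, 57.4 and 60.6 RPKM (-0.49, adjusted p = 0.4). Among 27 CDK inhibitors and p53 targets, 2 were higher (7.41%) and 3 lower (11.1%). Cdkn1b (p27), an inhibitor of CDK2, was at 5.76, 5.59, 2.76 and 2.65 RPKM (-0.85, SE 0.15, adjusted p = 0.121), so KIT+ cells had less than KIT- cells in both libraries. Ccng1 was at 22.4, 23.0, 33.9 and 35.2 RPKM, and Phlda3, a p53 target that restrains AKT, at 0.806, 0.798, 4.95 and 2.15 RPKM (1.26, adjusted p = 0.264). Sesn1, a stress-induced inhibitor of mTORC1, was at 14, 13.7, 8.08 and 9.49 RPKM (-0.61, adjusted p = 0.166).

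Cholesterol synthesis had the highest median of the 22 lists, 0.28. That rank passed to the replication-dependent histone list without KIT- replicate 2 (0.309 against 0.298) and without KIT+ replicate 2 (0.434 against 0.366). Of 24 tested genes of cholesterol synthesis 21 lay above 0, 9 were higher at a nominal p of 0.05 or less and 0 were lower. None was called (lowest adjusted p = 0.158 by limma). Pmvk, which phosphorylates phosphomevalonate, was at 1.38, 1.36, 3.92 and 3.77 RPKM (1.03). Mvd, which makes isopentenyl diphosphate in the next step, was at 9.47, 8.68, 14.2 and 15.9 RPKM (0.67). Lss, which closes squalene epoxide to lanosterol, was at 8.70, 8.47, 12.8 and 11.4 RPKM (0.45), and Cyp51, which demethylates lanosterol, at 14.2, 15.0, 22.1 and 19.1 RPKM (0.47). Leaving out a library left 5 to 7 higher members and 0 lower, 5 without KIT- replicate 2. The list had a median of 0.13 at 15 months and 0.03 at 8 months, with 0 members called higher and 2 called lower at 15 months, and 0 members passed the test of a difference between these ages. SREBP factors, which drive these genes, work with NF-Y at CCAAT boxes; 80.0% of 10 promoter entries of the 9 members hold CCAAT, against 33.9% of all promoters in the table, and 79.0% of 19 entries of the 16 members of the whole list that matched. Nothing about the members is read from these shares. The promoter of Mvd (GRCm38.p6, chr8:122443423-122443672, - strand) is shown as one of those with more than 1 match, in capitals.
Mvd: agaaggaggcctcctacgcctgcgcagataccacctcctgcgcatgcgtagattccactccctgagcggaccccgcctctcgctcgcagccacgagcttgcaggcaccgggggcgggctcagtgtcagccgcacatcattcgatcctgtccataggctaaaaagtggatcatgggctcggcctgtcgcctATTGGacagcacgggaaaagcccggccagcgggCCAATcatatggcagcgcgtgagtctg

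**Figure D4:**
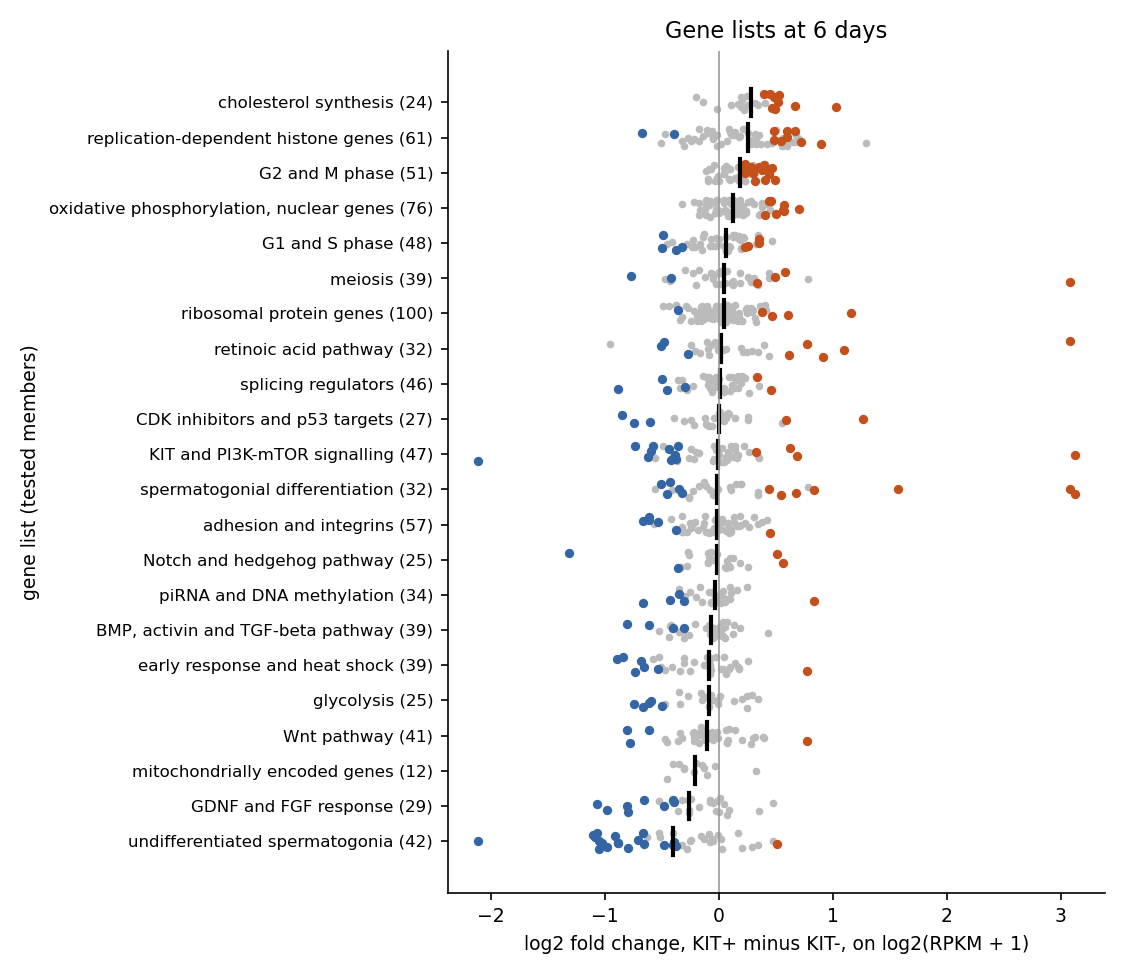
Log2 difference between KIT+ and KIT- at 6 days for each tested member of 22 gene lists, ordered by the list's median (black bar); orange and blue points are members higher or lower at a nominal p of 0.05 or less, grey points are the others, and some genes stand in more than 1 list. Medians run from -0.40 for undifferentiated spermatogonia to 0.28 for cholesterol synthesis, and most points lie within 1 of 0.

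No gene of energy metabolism was called. Of 25 glycolysis genes, 5 were lower (20.0%, against 5.01% of all tested genes) and 0 higher at the nominal p (median -0.09). Ldha, the lactate dehydrogenase A subunit, was at 6.69, 5.28, 3.83 and 3.28 RPKM (-0.61, adjusted p = 0.222). Hk1, a hexokinase, was at 9.46, 8.23, 6.25 and 4.32 RPKM (-0.66), and the glucose transporter gene Slc2a3 at 13.2, 13.0, 9.19 and 8.81 RPKM (-0.50). All of these were lower in each KIT+ library. The 5 became 3 without KIT- replicate 1 and 3 without KIT+ replicate 2. Of 76 nuclear genes of oxidative phosphorylation, 8 were higher (10.5%, against 5.34% of all) and 0 lower (median 0.13), with Ndufa2 of complex I at 33.4, 37.2, 56.1 and 49.8 RPKM (0.57, adjusted p = 0.121) and Sdha of complex II at 126, 111, 162 and 152 RPKM (0.41, adjusted p = 0.326). Without KIT+ replicate 1 the 8 became 1 and the median -0.025, with 33 members above 0 and 43 below; without KIT+ replicate 2 the 8 became 11 and the median 0.28. The 12 mitochondrially encoded genes had 0 in either direction, and 11 of them lay below 0 (median -0.21). The ribosomal protein list, at 100 genes tested, had 4 higher and 1 lower (median 0.04); of these, Rps27l is a p53 target and Rps6ka6 a kinase, taken in by their symbols. Over the 22 lists, leaving out a library turned the sign of the median in 8, and moved counts of 4 or fewer members by up to 3.

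No gene of the Notch and hedgehog, BMP or Wnt lists was called, and their shares at the nominal p stand beside 5.34% higher and 5.01% lower of all genes. Ptch1, the hedgehog receptor and also a target gene of that pathway, was at 12.2, 12, 3.58 and 5.07 RPKM (-1.31, SE 0.19, adjusted p = 0.0927), among 2 higher (8.00%) and 2 lower (8.00%) of 25 Notch and hedgehog genes. Jag2, a Notch ligand, was at 7.01, 7.59, 11.1 and 11.5 RPKM (0.57, adjusted p = 0.119). In the BMP, activin and TGF-beta list 4 of 39 were lower (10.3%; 1 without KIT+ replicate 1) and 0 higher: Fst, which binds and blocks activin, was at 57.1, 57.3, 33.2 and 31.5 RPKM (-0.80, adjusted p = 0.157). Its KIT- replicates were nearly equal. Bmpr1a, a BMP receptor, was at 62.7, 62.3, 48.1 and 53 RPKM (-0.30, adjusted p = 0.312). Among 41 Wnt genes 1 was higher (2.44%), Lgr4, a receptor for R-spondins, at 2.80, 3.44, 5.52 and 6.58 RPKM (0.78, adjusted p = 0.149), and 3 were lower (7.32%), among them the secreted modulator Sfrp2 at 52.2, 36.8, 24.1 and 26.3 RPKM (-0.78, adjusted p = 0.305).

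Of 39 meiotic genes, 4 were higher (10.3%) and 2 lower (5.13%) at the nominal p, where 5.34% and 5.01% of all genes were; the 4 became 1 without KIT- replicate 1. Besides Stra8, which was called, Mei1 was at 3.30, 3.91, 5.37 and 6.40 RPKM (0.58, adjusted p = 0.271), and Ccdc36 (Iho1), needed for DNA breaks, at 16.4, 17.0, 22.5 and 20.0 RPKM (0.33). Brdt, a bromodomain protein of later germ cells, was at 10.4, 11.7, 5.29 and 6.90 RPKM (-0.77, adjusted p = 0.188). In the list of piRNA and DNA methylation genes 1 of 34 was higher, Dnmt3b, and 4 were lower (11.8%; 1 without KIT- replicate 1, 1 without KIT+ replicate 2), including Tdrd5, a tudor protein, at 8.66, 9.47, 4.98 and 5.77 RPKM (-0.66, adjusted p = 0.137), and Morc1, which silences transposons, at 69.4, 71.2, 55.5 and 57.6 RPKM (-0.31). The junction and integrin list had 5 lower (8.77%) and 1 higher (1.75%) of 57. Itgb5 was at 31.1, 28.1, 18.9 and 19.1 RPKM (-0.61, adjusted p = 0.11). Ocln, a tight junction protein, was at 12.7, 11, 7.63 and 8.14 RPKM (-0.53). Splicing regulators had 4 lower (8.70%) and 2 higher (4.35%) of 46, and 1 lower without KIT- replicate 1. Mbnl2 was at 5.19, 5.71, 3.13 and 1.95 RPKM (-0.88, adjusted p = 0.149).

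The list of early response and heat shock genes, which the handling of cells can induce, had no called member. Of 39 tested, 6 were lower (15.4%) and 1 was higher at the nominal p (median -0.09); the 6 became 3 without KIT- replicate 1 and 3 without KIT+ replicate 1. Egr1 was at 12, 11.4, 7.0 and 5.21 RPKM (-0.84, adjusted p = 0.314), Egr2, which GDNF also induces, at 10.6, 11.1, 6.36 and 6.72 RPKM (-0.66), and Junb at 2.88, 3.44, 1.86 and 1.88 RPKM (-0.53). Dusp2, a MAP kinase phosphatase, was the 1 higher, at 1.67, 2.08, 4.20 and 3.60 RPKM (0.77, adjusted p = 0.14). The lower values of this list stand beside those of the undifferentiated list, of the GDNF response and of the Sertoli cell markers; the part of any of them in another was not tested.

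The direction of the 6-day differences can be set beside those of older mice, whose fractions came from other libraries (2 of each fraction at 15 months; 2 KIT- and 1 KIT+ at 8 months). Of the 984 genes higher at 6 days at a nominal p of 0.05 or less, 797 (81.0%) were also above 0 at 15 months and 796 (80.9%) at 8 months, where 45.3% and 45.7% of all tested genes were. Of the 923 lower genes, 777 (84.2%) and 792 (85.8%) were below 0, against 54.1% and 53.7% of all. At 15 months 362 of the 984 (36.8%) were called higher, against 6.75% of all genes. Of the 923, 422 (45.7%) were called lower, against 11.6%. The numbers called the opposite way were 18 and 5. The fit gave each gene 1 spread shared over all ages, so these calls are not independent of the p at 6 days. From the other side, the 1243 genes called higher at 15 months had a median log2 difference of 0.85 there and 0.24 at 6 days. The 2132 called lower had medians of -1.05 and -0.16. Of these genes, 84.4% and 72.8% had the same sign at 6 days. They were chosen by their size at 15 months, which raises the medians there. The 984 and 923 genes chosen at 6 days had medians of 0.48 and -0.53 there and 0.46 and -0.58 at 15 months. Their choice by p at 6 days likewise makes the 6-day medians larger in size, so equal effects at the 2 ages cannot be read from them.

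**Figure D5:**
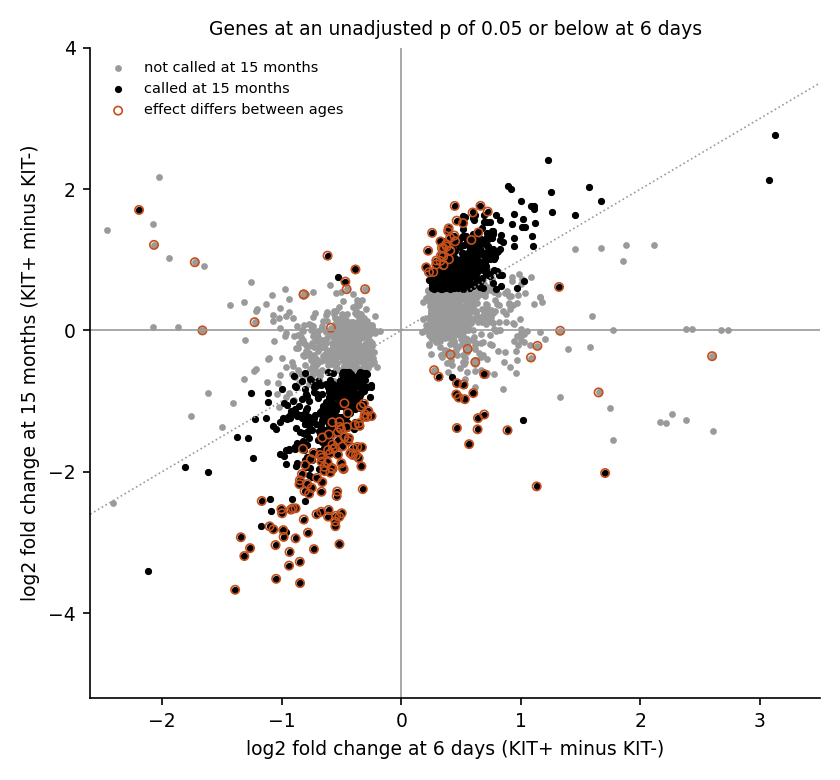
Log2 difference between KIT+ and KIT- at 15 months against that at 6 days for the 1907 genes at a nominal p of 0.05 or less at 6 days; black points are called at 15 months, orange rings mark genes whose difference itself differs between the ages (57 of 984 higher and 116 of 923 lower), and the dotted line marks equal values. Most points lie in the lower left and upper right quadrants, and the ringed points at lower left fall below the dotted line.

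The difference between ages was tested as an interaction in the same limma fit, and 722 genes, 3.92% of those tested, passed an FDR of 0.05. Among the 923 genes lower at 6 days, 116 passed, and in 103 of these the difference at 15 months was the larger one in the same direction. Among the 984 higher genes 57 passed, 31 of them larger at 15 months. Enc1 changed by -1.34 at 6 days and -2.93 at 15 months (interaction adjusted p = 0.00427), and Rragd by -1.27 and -3.08 (interaction adjusted p = 0.00425). For Kit (3.12 and 2.77) and Stra8 (3.08 and 2.13) the interaction did not pass (adjusted p = 0.303 and 0.152). Gfra1 had a difference of -0.08 at 6 days and -1.77 at 15 months (interaction adjusted p = 0.0239), and Cdkn1b of -0.85 and -3.27 (interaction adjusted p = 0.00395). By list, the median of undifferentiated genes was -0.40 at 6 days, -1.33 at 8 months and -1.01 at 15 months, and that of G2 and M phase genes was 0.19, 0.64 and 0.69; 13 and 12 of their members passed the interaction test. With 1 library of the 6-day mice left out, 147 to 182 genes passed in place of 722.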

How the data were processed

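Total RNA of FACS-sorted Oct4-GFP+ spermatogonia was depleted of ribosomal RNA and sequenced as paired ends. The authors deposited RPKM values per Ensembl gene (mm9), 1 file per library, which they made from their read counts; their methods name Trimmomatic and featureCounts with Ensembl release 67 and their processing notes Trim Galore and RSEM, so which tool made the values is unsettled, which bears on reading their steps as whole reads; aligner and strand setting were not given in the sources used here. Of 37991 identifiers, 37205 were in GENCODE M1 (NCBIM37). Whole reads were recovered from the RPKM steps (98.1% to 98.3% of values whole within 0.05 reads). Genes with at least 10 reads in 2 of 11 libraries were kept (18412). log2(RPKM + 1) of all libraries was fitted in limma 3.58.1 with 1 coefficient per group and contrasts within age; calls needed an FDR of at most 0.05 and 1.5-fold. Alternatives changed the pseudocount (0.1 RPKM), the filter, the scaling, the libraries fitted, the replicate block and the test (limma-voom on recovered reads); a replicate block on the 6-day libraries alone was added after the data were seen. Scripts were tested on simulated data. Named genes were all called genes, the 10 of lowest p per direction with a mean of at least 1 RPKM, at least 200 bases of exon, 1.5-fold and no overlap, up to 4 per list, and fixed anchors. Members and lists were chosen with earlier results of these data known. Replicates were independent experiments per the study's methods. Promoters are from RefSeq (GRCm38.p6), 250 bases before each start. Some genes that this rule names are not reported here.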

Additional observations from a re-analysis of the deposited data

Results flagged for a closer look

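The KIT effect differed between 6 days and 15 months for 35 of the 110 named genes, by the interaction test of limma (FDR 0.05). Over all 18412 tested genes 722 passed (3.92%). Many named genes were chosen by their p at 6 days or from lists made with earlier results known. The share among them is therefore not a result about them. All values are the log2 effect at 6 days minus that at 15 months. For 24 genes the KIT+ level was below the KIT- level at both ages and the effect was larger at 15 months. Among regulators of the undifferentiated state the difference was 1.19 for Zbtb16, 1.99 for Nanos3, 1.36 for Etv5 and 2.40 for Pou5f1. Among surface proteins of that state it was 1.94 for Ret, 1.69 for Gfra1 and 1.75 for Sdc4. It was 1.88 for Ptch1 of the hedgehog list and 1.10 for Fst of the BMP, activin and TGF-beta list. For other transcription and chromatin factors it was 2.28 for Six4, 1.84 for Zfp462, 1.54 for Brdt and 0.92 for Morc1. For the tudor protein Tdrd5 it was 0.86. For growth and metabolism it was 1.82 for Rragd, 0.87 for Sesn1, 2.42 for Cdkn1b, 1.15 for Pdk1, 2.02 for Ldha and 2.09 for Slc2a3, and for the remaining genes 1.59 for Enc1, 1.63 for Mbnl2, 0.91 for Ocln and 1.14 for F11r.

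For 7 genes the KIT+ level was above the KIT- level at both ages and the effect was larger at 15 months: -0.90 for Top2a, -1.09 for Plk1, -1.12 for Prim1, -0.59 for Mcm6, -0.69 for Ccng1, -0.73 for Ccdc36 and -1.07 for Hist3h2ba. The reverse held for 1 gene, Gm9581, at 0.70. For 3 genes the fitted effects had opposite signs, at -1.34 for Gm12424, -1.04 for Esrp1 and -0.89 for Bmpr1a. At 15 months Gm12424 was near the floor, at a mean of 0 RPKM in KIT- and 0.0874 RPKM in KIT+ (log2 difference 0.12). Esrp1 was lower in KIT+ at 6 days (-0.46) and higher at 15 months (0.58). Whether libraries of different ages were prepared together was not given in the sources used here, so age and preparation cannot be told apart.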

How the results depend on the processing

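The 8 calls became 17 among the 12112 genes that reached 1 RPKM on average, 16 with no filter on low values (24 without the fold limit), 74 with limma-voom on recovered reads and 0 on the 4 libraries of 6-day mice alone; leaving out a library gave 1 to 4. Of the 8 genes, 7 were also called with the 1 RPKM minimum, 7 with no filter and 7 with voom. The count at a nominal p of 0.05 or less ranged from 1152 (without KIT+ replicate 1) to 1706 when a library was left out. For Kit, with a log2 difference of 3.12 in each, the adjusted p was 0.197 on the 4 libraries alone and 0.0707 with a replicate block within each age.

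The sources used here do not say whether equal replicate numbers mark a shared experiment. Across genes, replicate 1 minus 2 in KIT- correlated with that in KIT+ at 0.0458. Reads on mt-Rnr2, a mitochondrial ribosomal RNA gene, rose from 16.99% to 19.57% from replicate 1 to 2 in 6-day KIT-. In 6-day KIT+ they rose from 17.57% to 20.25%. At 15 months they fell in KIT- (19.03% to 17.19%) and rose in KIT+ (15.56% to 18.52%). Such hints from 2 pairs do not settle whether the libraries are paired, and they were not treated as paired. With the replicate block within each age, 0 genes were called, 1279 had a nominal p of 0.05 or less, and 0 passed the interaction test in place of 722. With the block on the 4 libraries of 6-day mice, added after the data were seen, 0 were called, 1901 had a nominal p of 0.05 or less, and Kit, at 3.12, had an adjusted p of 0.479. Leaving out a library left 147 to 182 genes past the interaction test.

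The root mean square difference between fractions, 0.419 over 4 pairs of libraries, was 0.481 among genes of at least 1 RPKM and 0.866 with a pseudocount of 0.1 RPKM, where replicates also moved (from 0.404 to 0.885 for KIT-). Of 1304 values of named genes under 12 alternatives, 1298 kept their direction. The 6 others were of Rhox13 (-0.02 as reported, 0.026 with voom and -0.29 to 0.25 when a library was left out) and of Sall4 (0.00357 with voom and -0.095 to 0.088 when a library was left out); the cause was not tested.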

Other observations

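Genes at a nominal p of 0.05 or less were unevenly spread over expression levels. They made up 5.26% of the 7109 tested genes under 1 RPKM, 12.9% of 6684 at 1 to 10 RPKM, 15.0% of 4341 at 10 to 100 RPKM and 6.47% of 278 at 100 RPKM or more; in the last group 15 were higher in KIT+ and 3 lower. Among 695 lincRNAs 13 were higher and 31 lower (6.33%), and among 15858 protein-coding genes 886 were higher and 804 lower (10.7%).

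Leydig cell markers summed to 3.40 and 6.02 RPKM in KIT- and 3.21 and 3.03 RPKM in KIT+, with Insl3 at 0 in all 4 libraries. Macrophage markers summed to 3.20, 4.75, 3.49 and 2.06 RPKM, and peritubular myoid markers to 1.59, 2.78, 3.05 and 1.71 RPKM. Endothelial markers summed to 4.49, 4.30, 3.24 and 4.11 RPKM. Spermatid markers summed to 5.91, 4.55, 3.99 and 4.29 RPKM. Most of that was Spaca1, at 4.42, 3.48, 3.05 and 3.41 RPKM, while Prm1 and Acrv1 were at 0 in all 4 libraries. Oocyte markers summed to 1.52, 1.83, 2.88 and 3.07 RPKM, of which Figla gave 0.322, 0.871, 1.69 and 1.77 RPKM. The germ cell list summed to 1081, 1048, 1138 and 1052 RPKM, with overlapping fractions.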
